A study of Capra hircus with 4 samples.

Results

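YAP1 and its paralogue WWTR1 (also called TAZ), the DNA-binding partners TEAD1 to TEAD4, the kinases LATS1 and LATS2, the scaffold AMOTL2 and the target gene ANKRD1 were followed in cultured stem cells of the secondary hair follicles of cashmere goats (Capra hircus). These 10 genes were taken by their symbols from the 20326 genes that each deposited table lists, and all 10 were found and passed the filter on low values. The cells had been isolated from dorsal skin and cultured, at mid anagen (October) or at early anagen (April), both within the growth phase of the hair cycle. Each phase has 1 male and 1 female library, called biological replicates in the labels, with the male as replicate 2 and the female as replicate 1 in both phases. No treatment or genetic change is named for any group, and neither the number of animals behind a library nor the time in culture is stated in the labels. The labels do not name the unit of the values. They behave like abundances normalised for transcript length (TPM) and rescaled between libraries, and every comparison of levels between genes below, shares included, rests on that reading. The number of reads behind them is unknown. With 2 libraries a group, p-values measure only the spread between these samples.

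In the Hippo pathway the kinases STK3 and STK4, with the scaffold SAV1, activate LATS1 and LATS2, which work with MOB1A or MOB1B. LATS kinases phosphorylate YAP1 and WWTR1, which are then held in the cytoplasm by 14-3-3 proteins or degraded. Unphosphorylated YAP1 and WWTR1 enter the nucleus, bind TEAD factors and switch on genes such as CTGF, CYR61 and ANKRD1, and also LATS2 and AMOTL2, which act back on them as inhibitors. In skin, YAP1 is known from the basal layer and from follicle progenitors, where it favours growth. The files hold RNA levels and give no protein amount, phosphorylation or position in the cell.

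Among markers of the labelled cell type, the basal keratin KRT14 was at 8956 and 9603 in the mid anagen male and female and at 23511 and 20587 in the early anagen male and female libraries. Of all 9 basal keratinocyte markers, 3 were lower in both mid anagen libraries than in either early one and 0 were higher. The others overlapped. Over all tested genes, 30.9% were lower and 31.5% higher in this sense. TP63, a regulator of the basal layer, had a log2 fold change of 0.20. The 10 found markers of follicle stem cells summed to 279 and 250.3 at mid anagen in the male and female libraries. At early anagen they summed to 113 and 148 in the male and female. Of the 10, 9 were higher in both mid anagen libraries than in either early one and 0 were lower, beside the same 31.5% and 30.9%. LGR6 and CD34, both among the 9, were under 1 in every library. Fibroblast markers also moved with the phase. All 16 were found. They summed to 175 and 353 in the mid anagen male and female, against 30.3 and 44.3 in the early anagen male and female. Of the 16, 15 were higher in both mid anagen libraries than in either early one, beside 31.5% of all tested genes. That count is a description only. COL1A1, COL1A2, COL3A1, COL6A1, COL6A3, DCN, LUM, POSTN, FBN1 and PRRX1 passed the filter only through their mid anagen values. PDGFRA, PDGFRB and TWIST1, also among the 15, did not pass it. PDGFRA and TWIST1 were under 1 throughout. Under 1 in every library were 6 of 8 endothelial markers, 5 of 7 melanocyte markers and 3 of the 6 immune markers found, PECAM1, CDH5, DCT, TYR and PTPRC among them. Of the detected ones, ERG was at 5.24 and 4.19 in the mid anagen male and female. In the early anagen male and female it was at 0.333 and 0.884. EGFL7 was at 5.16 and 7.10 against 3.72 and 2.86, and CD14 at 8.52 and 12.6 against 2.49 and 3.28, in the same order. Their log2 fold changes were 1.84, 0.73 and 1.56, with limma adjusted p = 0.115 for EGFL7 and 0.0688 for CD14. ERG passed the filter only through its mid anagen values, so its adjusted p is not given. The other detected markers had smaller log2 fold changes, at -0.14 for CD68, 0.02 for CD79A, -0.10 for PMEL and 0.15 for MITF. Of the 8 endothelial markers, 5 were higher in both mid anagen libraries than in either early one and 1, PECAM1, was lower. The shares over all tested genes were 31.5% and 30.9%. KDR, TEK and VWF were among the 5, and each of them, like PECAM1, was under 1 in every library. The part of endothelial, melanocyte or immune cells in the differences between the phases was not tested. In bulk RNA a smaller number of cells of a type and less RNA per cell cannot be told apart.

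**Figure D1:**
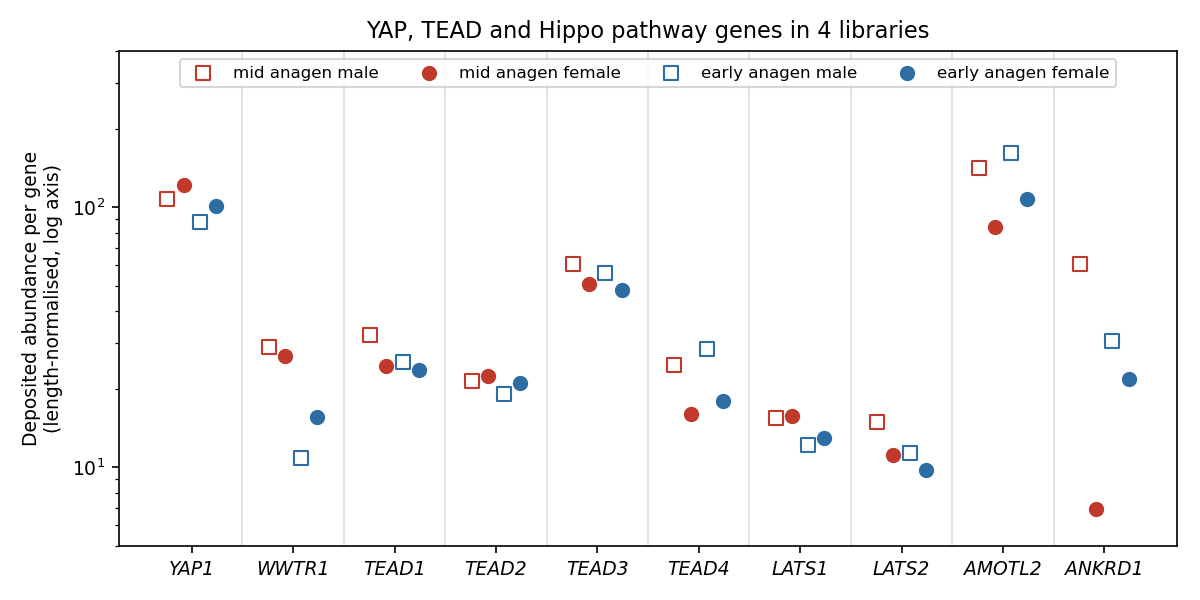
Deposited abundance of the 10 genes (log axis) in the mid anagen male and female and the early anagen male and female libraries, 1 point per library. WWTR1 is at 29.1 and 26.8 at mid anagen and at 10.9 and 15.6 at early anagen. TEAD3 lies above the other TEAD genes in every library, and TEAD4 runs from 16.1 to 28.6 across libraries. ANKRD1 spreads from 6.94 to 60.7 within mid anagen.

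YAP1 was among the most abundant of these genes. It was at 107 and 122 in the mid anagen male and female, against 87.6 and 101 in the early anagen male and female libraries. Both mid anagen values lay above both early ones, and YAP1 exceeded 86% to 92.2% of the tested genes in a library. The log2 fold change of 0.28 (SE 0.17, 95% interval -0.14 to 0.70) did not pass (limma adjusted p = 0.322), and its interval takes in both 0 and a moderate increase. With the trend of each library with gene span removed it was 0.08 (adjusted p = 0.795). Rescaling to a common total moved the median over all tested genes to 0.32, and YAP1 with it to 0.62 (adjusted p = 0.0778).

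WWTR1, the other coactivator, had the largest log2 fold change of the 10 genes. It was at 29.1 and 26.8 in the mid anagen male and female, against 10.9 and 15.6 in the early anagen male and female libraries. The groups did not overlap, and the lowest mid anagen value was well above the highest early one. The log2 fold change was 1.04 (SE 0.20, 95% interval 0.54 to 1.55), with 1.34 in the male pair and 0.74 in the female pair. Its unadjusted p of 0.00275 became 0.0753 when limma adjusted over all tested genes, so WWTR1 was not called. With each library rescaled to a common total it was called (limma adjusted p = 0.0463). It was also called in a fit with phase and sex (limma adjusted p = 0.024). That fit, the replicate block below, leaves 1 residual degree of freedom and called 14.3% of all tested genes. Under the other settings that keep all 4 libraries, the limma adjusted p ran from 0.0702 to 0.133. Without 1 library the log2 fold change of WWTR1 ran from 0.80 to 1.28. Its position among tested genes also differed, above 63.5% and 61.6% of them in the mid anagen male and female, against 36.7% and 45.5% in the early anagen male and female libraries. The marker sums of fibroblasts and of follicle stem cells were also higher at mid anagen, as given above. The part of such cells in the WWTR1 difference was not tested.

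The balance of the coactivators follows from both genes and does not change when all values of a library are multiplied by a common factor. Quantile normalisation can change it, with log2 fold changes there of 0.48 for YAP1 and 1.00 for WWTR1, against 0.28 and 1.04. WWTR1 made up 21.3% and 18.0% of the summed YAP1 and WWTR1 abundance in the mid anagen male and female, against 11.0% and 13.4% in the early anagen male and female libraries. YAP1 was 3.69 and 4.57 times as abundant as WWTR1 at mid anagen in the male and female, against 8.06 and 6.46 times at early anagen in the male and female. The mean share was 19.6% ± 2.37 at mid anagen and 12.2% ± 1.67 at early anagen (SD, n = 2 each), a difference of 7.42 percentage points (two-sided exact permutation p = 0.333, the smallest that 2 against 2 libraries allow). YAP1 stayed the more abundant coactivator in all 4 libraries. The summed abundance of both was 136 and 149 in the mid anagen male and female and 98.5 and 117 in the early anagen male and female libraries, without overlap.

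**Figure D2:**
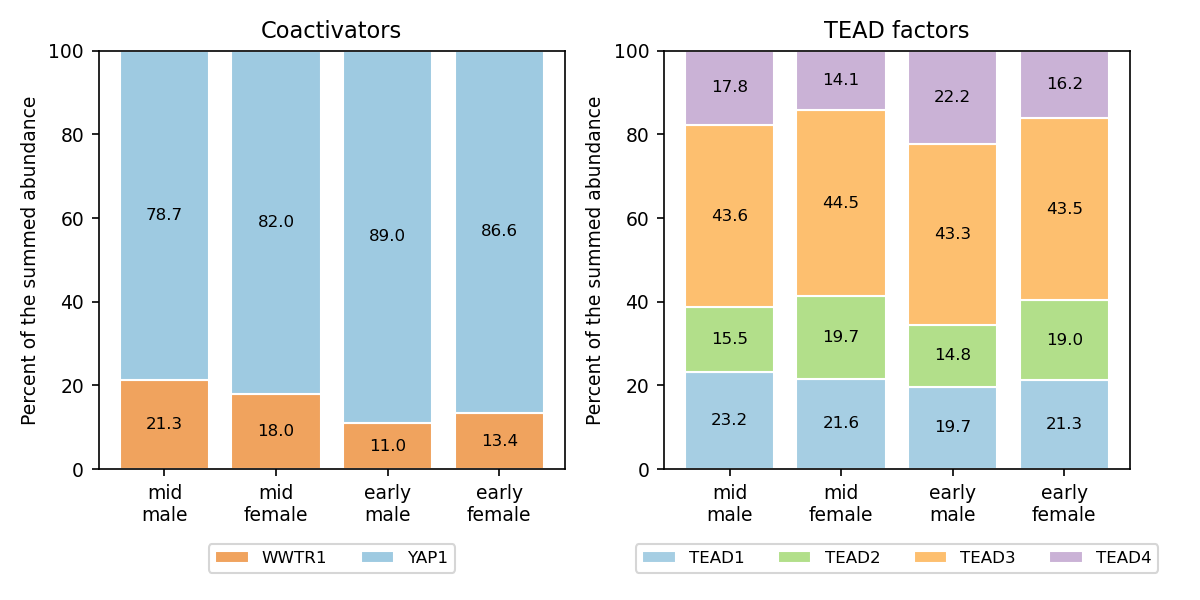
Percent of the summed abundance of YAP1 and WWTR1 (left) and of TEAD1 to TEAD4 (right) held by each gene in each library. The WWTR1 share is 21.3% and 18.0% at mid anagen and 11.0% and 13.4% at early anagen, while TEAD3 holds 43.3% to 44.5% of the TEAD total throughout.

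All 4 TEAD genes, which encode the transcription factors that carry YAP1 and WWTR1 to DNA, were expressed, and none was called between the phases. TEAD3 was the most abundant, at 60.7 and 50.7 in the mid anagen male and female, against 55.7 and 48.2 in the early anagen male and female libraries (log2 fold change 0.10, SE 0.17, limma adjusted p = 0.747). TEAD1 was at 32.3 and 24.6 at mid anagen and at 25.4 and 23.6 at early anagen in the male and female (0.20, SE 0.18, adjusted p = 0.506). TEAD2 was at 21.6 and 22.5 at mid anagen and 19.1 and 21.1 at early anagen in the male and female (0.13, SE 0.14, adjusted p = 0.588). Each of these had its 95% interval between -0.33 and 0.64 on the log2 scale, which leaves out a 2-fold change in either direction. TEAD4 was at 24.8 and 16.1 at mid anagen and at 28.6 and 17.9 at early anagen in the male and female (-0.17, 95% interval -0.91 to 0.57, adjusted p = 0.738), so it differed more between the sexes than between the phases. With the span trend removed TEAD1 was at -0.10, and rescaling to a common total moved TEAD4 to 0.16.

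The composition of the TEAD family varied little with phase. TEAD3 held 43.6% and 44.5% of the summed TEAD abundance in the mid anagen male and female and 43.3% and 43.5% in the early anagen male and female libraries. The TEAD1 share was 22.4% ± 1.11 at mid anagen and 20.5% ± 1.12 at early anagen (SD, n = 2 each; two-sided exact permutation p = 0.333, again the smallest possible). TEAD4 held 17.8% and 14.1% at mid anagen and 22.2% and 16.2% at early anagen in the male and female, and TEAD2 15.5% and 19.7% at mid anagen and 14.8% and 19.0% at early anagen in the male and female. Set against the summed TEAD abundance, YAP1 plus WWTR1 came to a ratio of 0.979 and 1.31 in the mid anagen male and female and of 0.765 and 1.05 in the early anagen male and female libraries; these ranges overlap.

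LATS1 and LATS2, the kinases that restrain YAP1 and WWTR1, had the lowest mean levels of the 10 genes in both phases. LATS1 was at 15.5 and 15.8 in the mid anagen male and female, against 12.2 and 13.0 in the early anagen male and female libraries, without overlap (log2 fold change 0.30, SE 0.14, 95% interval -0.05 to 0.64, limma adjusted p = 0.226). LATS2, itself a YAP1 target, was at 14.9 and 11.2 at mid anagen and at 11.4 and 9.80 at early anagen in the male and female, with overlap (0.27, SE 0.19, adjusted p = 0.392). Their sum was 30.5 and 27.0 at mid anagen and 23.6 and 22.8 at early anagen in the male and female.

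AMOTL2, a junction scaffold that binds YAP1 and is one of its targets, was at 142 and 83.8 in the mid anagen male and female, against 162 and 108 in the early anagen male and female libraries (log2 fold change -0.27, SE 0.32, limma adjusted p = 0.616; 0.069 after rescaling). It was higher in both male libraries than in both female ones, and the phases overlapped. ANKRD1, a nuclear ankyrin repeat protein widely used as a readout of YAP1 activity, was the most variable of the 10. It was at 60.7 and 6.94 in the mid anagen male and female, against 30.6 and 21.8 in the early anagen male and female libraries. The male pair was higher at mid anagen and the female pair lower, with log2 fold changes of 0.96 and -1.52, and the fit over all libraries gave -0.28 (SE 0.92, adjusted p = 0.865). A single library sets the direction. Without the mid anagen female library the log2 fold change was 1.20 (adjusted p = 0.0438), and without the mid anagen male library it was -1.76 (adjusted p = 0.0303), each with the lone mid anagen library assumed to vary like the early ones.

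**Figure D3:**
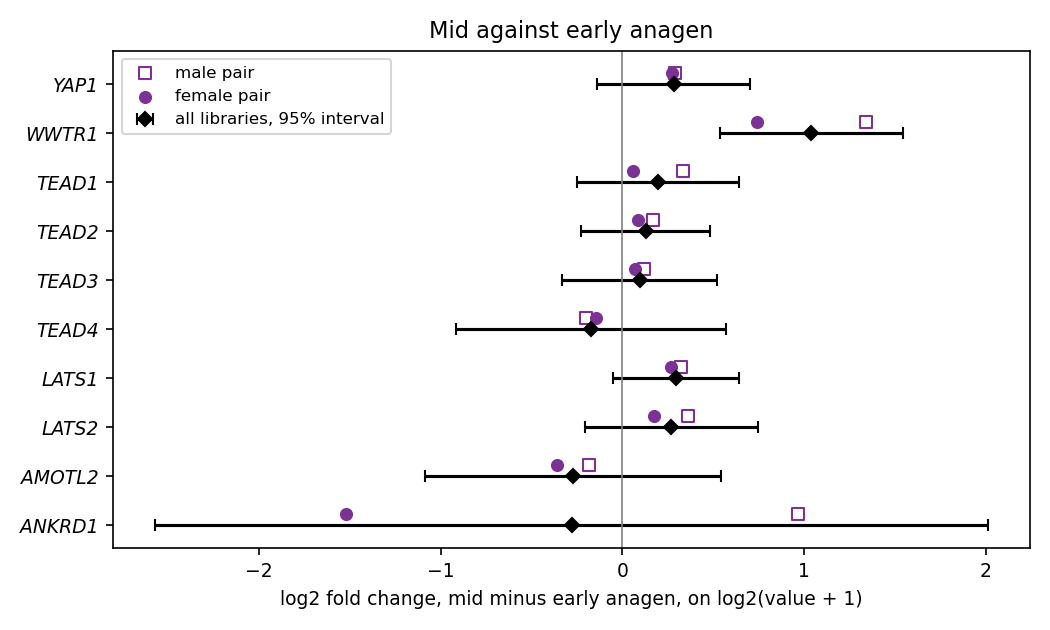
Log2 fold change of each gene, mid minus early anagen, on log2(value + 1), with the limma estimate and its 95% interval (diamonds and bars) and the values of the male and female pairs (squares and circles). The interval of WWTR1, from 0.54 to 1.55, lies above 0 before adjustment over all genes, and the pairs of ANKRD1 fall on opposite sides of 0.

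Over the 10 genes, 0 were called higher and 0 lower by limma, beside 0.224% of the 12486 tested genes that were called higher, 0.0801% called lower and 0.304% in all. WWTR1, as 1 of 10, had an unadjusted p under 0.05, beside 27.9% of all tested genes. YAP1, WWTR1, TEAD2 and LATS1 were higher in both mid anagen libraries than in either early one, which makes 4 of 10 beside 31.5% of all tested genes, and 0 of 10 were lower in this sense, beside 30.9%. The 4 of 10 lies slightly above its background, and the 1 of 10 and the 0 of 10 that were lower lie below theirs. With only 10 genes, these shares do not set the group apart. The median log2 fold change was 0.16, against 0.01 for all tested genes.

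By level, the order at mid anagen was YAP1, AMOTL2, TEAD3, ANKRD1, TEAD1, WWTR1, TEAD2, TEAD4, LATS1 and LATS2, and at early anagen AMOTL2, YAP1, TEAD3, ANKRD1, TEAD1, TEAD4, TEAD2, WWTR1, LATS1 and LATS2. Neighbours whose libraries overlapped were YAP1 with AMOTL2, TEAD3 with ANKRD1, ANKRD1 with TEAD1, TEAD1 with WWTR1, and TEAD2 with TEAD4 at mid anagen. At early anagen they were ANKRD1 with TEAD1, TEAD1 with TEAD4, TEAD4 with TEAD2, and WWTR1 with LATS1. WWTR1 thus stood beside TEAD1 at mid anagen and beside LATS1 at early anagen.

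The profiles most like those of YAP1 and WWTR1 over the 4 libraries were searched among all tested genes with a symbol. The likeness was the root mean square difference of log2(value + 1) after each gene was centred on its own mean. For YAP1 the nearest were TRIM45 (0.0076), AREL1 (0.00801) and CD38 (0.011). For WWTR1, the gene with the smallest phase p of the 10, they were ACHE (0.0249), CCDC92 (0.0261) and CHN2 (0.0279). ACHE was at 25.6 and 22.5 in the mid anagen male and female and at 9.25 and 13.6 in the early anagen male and female libraries. With 12486 candidates and 4 libraries, close matches are frequent.

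Among the other genes of the pathway, 77 regulators were listed, 76 were found and 70 could be tested. MAP4K1, AMOT, FAT4, DCHS1, DCHS2 and VGLL2 were below the filter. Of the 70, limma called 0, with 16 higher and 2 lower at an unadjusted p under 0.05, beside 13.2% and 14.7% of all tested genes. In both mid anagen libraries 32 of the 70 were higher than in either early one and 6 were lower, beside 31.5% and 30.9% of all tested genes. The median log2 fold change was 0.15, and 0.041 with the span trend removed. After rescaling to a common total 8 of the regulators were called, beside 685 of all 12541 genes tested there.

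Core kinases and scaffolds had higher values at mid anagen more often than lower ones. Of 23 tested core kinases and scaffolds, 16 were higher and 2 lower in both pairs, beside 39.3% and 37.1% of all tested genes. WWC2, a relative of the scaffold KIBRA that helps activate LATS kinases, was at 38.5 and 35.2 in the mid anagen male and female, against 17.1 and 18.0 in the early anagen male and female libraries (log2 fold change 1.03, SE 0.14, limma adjusted p = 0.0625). TNIK, a kinase of the MAP4K family better known from WNT signalling, was at 25.5 and 14.9 at mid anagen and at 3.00 and 6.02 at early anagen in the male and female (1.95, SE 0.36, adjusted p = 0.0726). STK3, the kinase upstream of LATS, was at 19.5 and 22.6 at mid anagen and at 12.0 and 13.6 at early anagen in the male and female (0.68, SE 0.16, adjusted p = 0.0851). The phosphatase PTPN14, which binds YAP1 and is also on the target list, had a log2 fold change of 0.64 (adjusted p = 0.0831) and the LATS-related kinase STK38 one of 0.51 (adjusted p = 0.0967). With the span trend removed STK3 was at 0.36 and PTPN14 at 0.40.

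**Figure D4:**
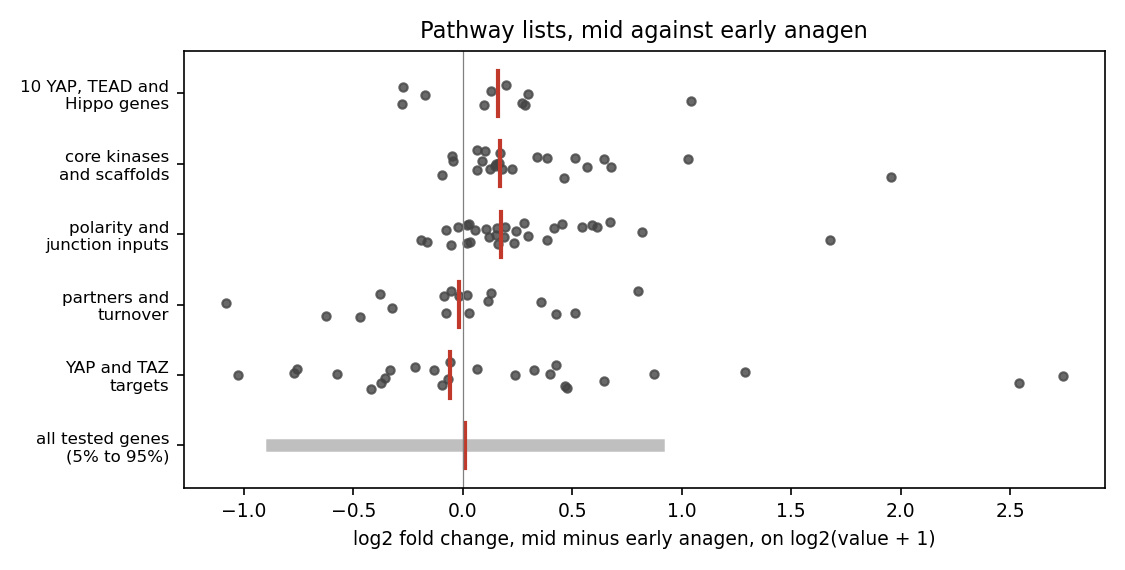
Log2 fold change, mid minus early anagen, of the tested genes in the 10-gene set and in the other pathway lists (points, 1 per gene, spread vertically for legibility), with the list median as a red line and the central range of all tested genes from -0.87 to 0.89 in grey. The medians lie between -0.06 for the YAP and TAZ targets and 0.17 for the core kinases and the polarity inputs.

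Of 30 tested polarity and junction inputs, 20 were higher and 1 was lower in both pairs, beside the same 39.3% and 37.1%. RASSF5, a partner of STK4, was at 19.5 in both mid anagen libraries, against 9.99 and 11.3 in the early anagen male and female (log2 fold change 0.82, SE 0.14, limma adjusted p = 0.0724). RASSF4, another member of that family, was at 6.78 and 6.47 at mid anagen and at 0.516 and 2.74 at early anagen in the male and female (1.68, SE 0.43, adjusted p = 0.0934). The giant cadherin FAT1 was at 83.1 and 105 at mid anagen and at 58.6 and 57.9 at early anagen in the male and female (0.67, SE 0.17, adjusted p = 0.0951). The junction scaffold PATJ and the striatin STRN3, part of a phosphatase complex that opposes STK3 and STK4, each had an adjusted p of 0.155, with log2 fold changes of 0.39 and 0.54. PATJ was at 0.041 with the span trend removed (adjusted p = 0.873).

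Of the 17 tested partners and turnover genes, 4 were higher and 7 lower in both pairs, again beside 39.3% and 37.1%. VGLL1 and VGLL4, which both bind TEAD factors in place of YAP1, differed in direction. VGLL1 was at 23.9 and 15.7 in the mid anagen male and female, against 60.7 and 29.2 in the early anagen male and female libraries (log2 fold change -1.08, SE 0.38, limma adjusted p = 0.147). VGLL4, a TEAD repressor, was at 53.7 and 51.1 at mid anagen and at 34.2 and 39.0 at early anagen in the male and female (0.51, SE 0.15, adjusted p = 0.112). YWHAH, a 14-3-3 protein, had a log2 fold change of -0.62 (adjusted p = 0.164), the ubiquitin ligase subunit BTRC, which marks phosphorylated YAP1 for degradation, one of 0.36 (adjusted p = 0.179), and RUNX1, a transcription factor that can partner the coactivators, one of 0.42 (adjusted p = 0.192). With the span trend removed VGLL4 was at 0.29, BTRC at 0.11 and RUNX1 at 0.26, and after rescaling YWHAH was at -0.28.

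Among YAP and TAZ target genes 1 of the 25 tested passed between the phases, beside 0.304% of all tested genes. Of 27 listed targets outside the 10 genes, all were found and 25 tested (PTPN14 and AMOTL1 are regulators too), with FOXF2 and RBMS3 below the filter. FSTL1, a secreted glycoprotein, was called. It rose to 31.1 and 21.7 in the mid anagen male and female, against 4.03 and 2.25 in the early anagen male and female libraries (log2 fold change 2.74, SE 0.28, limma adjusted p = 0.0431). That call ended with a pseudocount of 0.1 (adjusted p = 0.058), under quantile normalisation (0.0745), with no filter (0.105), with the gene span trend removed (0.05), without the early anagen male library (0.201) and without the early anagen female library (0.0784). The fibroblast marker sum is higher in the same libraries, and its part in the FSTL1 difference was not tested.

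Apart from FSTL1, the tested targets did not pass. TGFB2, a secreted ligand, was at 12.2 and 5.44 at mid anagen and at 0.143 and 1.20 at early anagen in the male and female (log2 fold change 2.54, SE 0.46, limma adjusted p = 0.0724). The kinase NUAK2 was at 36.7 and 34.2 at mid anagen and at 66.1 and 56.5 at early anagen in the male and female (-0.77, SE 0.16, adjusted p = 0.0771). BIRC5, survivin, which also marks dividing cells, was at 48.9 and 34.5 at mid anagen and at 92.7 and 77.7 at early anagen in the male and female (-1.03, SE 0.22, adjusted p = 0.0785). Of the 25 tested targets, 12 were higher and 11 lower at mid anagen in both pairs, beside 39.3% and 37.1% of all tested genes. At an unadjusted limma p under 0.05, 6 were higher and 2 lower, beside 13.2% and 14.7%. The list median was -0.06 in the fit, with 0.08 in the male pair and 0.02 in the female pair, so its sign is not settled.

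The sexes were compared in a fit with phase and sex, which leaves 1 residual degree of freedom and in which sex is also the replicate number. The male libraries were higher than the female ones, in every library, for TEAD1, TEAD3, TEAD4, LATS2, AMOTL2 and ANKRD1, and the reverse held for 0 of the 10. That is 6 of 10, beside 12.3% of all tested genes that were higher in this sense and 11.9% that were lower. The log2 differences, male minus female, were 1.72 for ANKRD1 (SE 0.52), 0.67 for AMOTL2 (SE 0.18) and 0.62 for TEAD4 (SE 0.14), and limma called 0 of 10 (adjusted p = 0.298, 0.236 and 0.183 for these genes), beside 0.144% of all tested genes. Unadjusted, these 3 had a p under 0.05, beside 11% of all tested genes in either direction. After rescaling to a common total ANKRD1 was called, among 403 genes called in all. YAP1 and WWTR1 had log2 differences of -0.19 each (limma adjusted p = 0.742 and 0.783). By phase the difference was -0.19 at mid anagen and -0.20 at early anagen for YAP1, but 0.11 and -0.48 for WWTR1. For ANKRD1 it was 2.96 and 0.47.

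The target list was set against sex after its values had been seen. Of the 25 tested targets, 19 were higher and 1, AREG, was lower in the male library of both phases. Over all tested genes, 29.7% were higher in both phases and 3507 of 12486 were lower in both. The median log2 difference, male minus female, was 0.34, with 0.48 at mid anagen and 0.28 at early anagen, against a median of -0.0013 over all tested genes. CTGF, a matricellular protein, was at 269 in the male and 128 in the female at mid anagen, and at 189 in the male and 100.3 in the female at early anagen (log2 difference 0.99, SE 0.19, limma adjusted p = 0.119). CYR61, its relative and likewise a classic YAP1 target, was at 328 in the male and 187 in the female at mid anagen, and at 333 in the male and 200 in the female at early anagen (0.77, SE 0.20, adjusted p = 0.236).

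**Figure D5:**
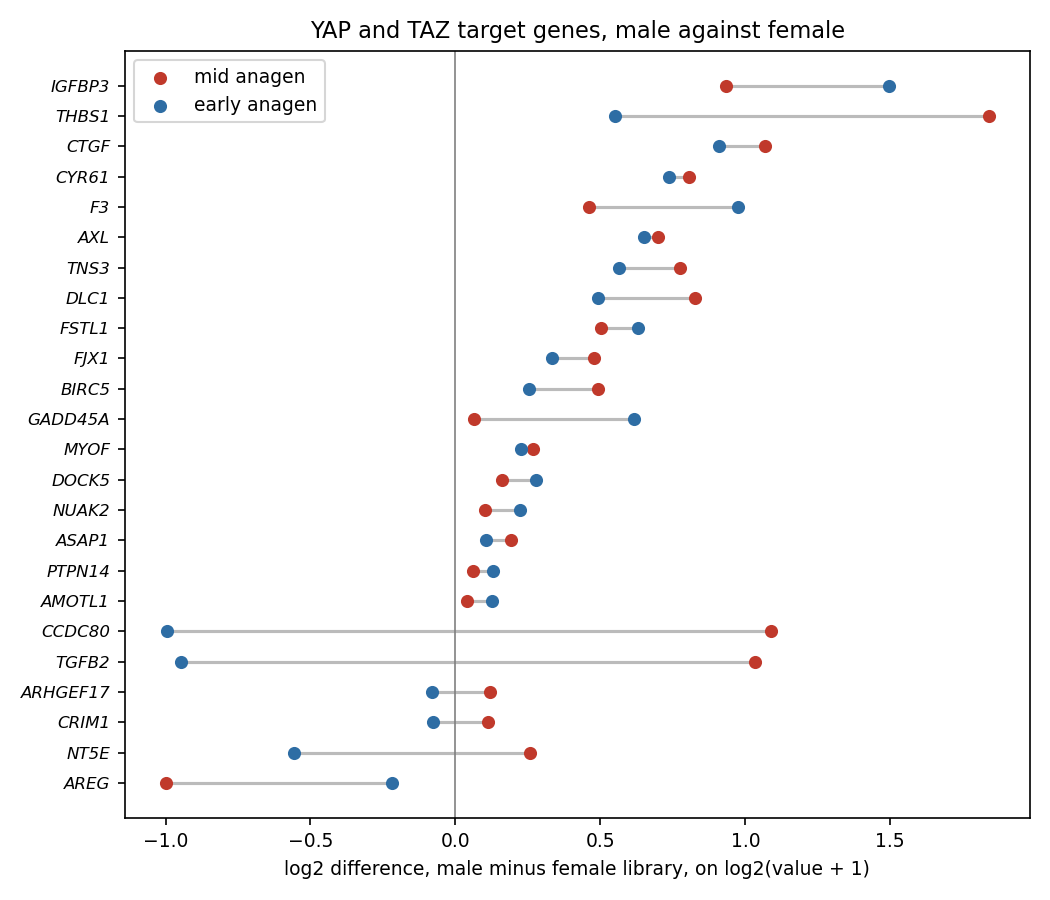
Log2 difference, male minus female library, on log2(value + 1), of 24 of the 25 tested YAP and TAZ target genes at mid and at early anagen (1 point per phase, joined by a line). For 18 of the genes drawn both points lie to the right of 0, with IGFBP3 and THBS1 at the top.

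IGFBP3, an IGF-binding protein, the receptor kinase AXL and the focal adhesion protein TNS3 had log2 differences of 1.21, 0.67 and 0.67 (adjusted p = 0.162, 0.162 and 0.165). Of the 25 targets limma called 0, beside 0.144% of all tested genes. With the male higher, 11 had an unadjusted p under 0.05, beside 4.85% of all tested genes. The actin-associated gene TAGLN, on the smooth muscle and pericyte list, was likewise at 432 in the male and 165 in the female at mid anagen and at 396 in the male and 119 in the female at early anagen (log2 difference 1.55, adjusted p = 0.063). That list of 7 summed to 593 in the male and 285 in the female at mid anagen and to 501 in the male and 244 in the female at early anagen, with RGS5 and DES under 1 throughout. Without TAGLN the other 6 summed to 161 in the male and 119 in the female at mid anagen. At early anagen they summed to 105 in the male and 124 in the female. The part of smooth muscle or pericyte cells in the differences between the sexes was not tested. MYH11, the smooth muscle myosin, was at 5.30 in the male and 6.83 in the female at mid anagen. At early anagen it was at 5.22 in the male and 6.30 in the female. ACTA2 and NOTCH3 were lower in the male at early anagen but higher at mid anagen. ACTA2 was at 52.4 in the male and 34.0 in the female at mid anagen, and at 38.5 and 51.0 at early anagen. NOTCH3 was at 57.1 and 47.3, and at 42.2 and 48.6, in the same order. CSPG4 was higher in the male in both phases, at 45.3 against 30.4 at mid anagen and 18.6 against 17.8 at early anagen. Sex cannot be told apart from the culture or animal behind each library.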

How the data were processed

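Total RNA was isolated with RNAiso Plus and an NEB Ultra kit served for the sequencing libraries, per the labels' protocols. The deposited values are a signal, 1 abundance per gene and library, whose unit no source used here names; it was read as length-normalised and is not counts. The submitters' processing notes name kallisto 0.46.1 and sleuth 0.30.0, and no source used here gives the genome build or the annotation. Totals were 844960 to 1186966 per library, and 12040 to 12458 genes were at or above 1. Depth is unknown, so no counting interval is given.

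The scale log2(value + 1) was used in limma 3.58.1 (R 4.3.3) with an intensity trend, for genes of at least 1 in at least 2 libraries (12486). Fold changes are on that scale and understate the change of low genes. Phase was the only term for mid against early anagen, and sex was tested beside phase. The Benjamini-Hochberg adjustment ran over all tested genes, with a threshold of 0.05. The script was tested on simulated data. The 10 genes, the lists and the marker genes were chosen with earlier results of these data known, and lists are described without a test. Text names all 10 genes, the 5 tested genes of each list with the smallest phase p and any called gene, the 3 nearest profiles for YAP1 and WWTR1, and, added after the values were seen, the 5 targets with the smallest sex p, CYR61, AREG and THBS1; 1 target that this rule takes by sex is counted but not reported here by name. Alternatives were pseudocounts of 0.1 and 5, no filter, a minimum of 5, each library left out in turn, a replicate block, rescaling to a common total, quantile normalisation and removal of the trend with gene span from the RefSeq table of ARS1.2. No coordinates or sequences are printed.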

Additional observations from a re-analysis of the deposited data

Results flagged for a closer look

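ANKRD1 moved in opposite directions in the sexes, with a log2 fold change, mid minus early anagen, of 0.96 in the male pair and -1.52 in the female pair. Each pair is 1 library against 1, so the difference between the pairs was not tested. Opposite directions in the pairs were seen for 1 of the 10 genes and for 23.5% of all tested genes.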

How the results depend on the processing

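Of the 10 genes, 1 was called under rescaling to a common total (WWTR1) and 1 with the replicate block (WWTR1, adjusted p = 0.024), and 0 to 1 (ANKRD1) without 1 library; male against female, 1 was called after rescaling (ANKRD1), where limma estimated an infinite prior degree of freedom and called 403 genes in all. Calls over all genes numbered 38 as reported (73.7% higher), 18 with a pseudocount of 0.1, 0 with no filter (3843 at an unadjusted limma p under 0.05), 685 after rescaling (87.3% higher), 23 under quantile normalisation, 1782 with the block (51.5% higher) and 0 to 628 without 1 library, namely 628 without the mid anagen female, 328 without the mid anagen male and 0 without the early anagen male or female (1435 and 2859 at an unadjusted p under 0.05). Regulators called were 8 after rescaling, 7 with the block and 0 to 2 without 1 library, the 2 being WWC2 (adjusted p = 0.03) and TNIK (0.0206) without the mid anagen female. Targets called were 1 as reported, 0 with a pseudocount of 0.1, with no filter, under quantile normalisation and with the span trend removed, 3 after rescaling, 5 with the block and 0 to 4 without 1 library, with 4 without the mid anagen female, 2 without the mid anagen male and 0 without either early library. Rescaling shifted the median over all tested genes to 0.32 (log2), and with it that of the 10 genes to 0.49, of the regulators to 0.48 and of the targets to 0.28; relative to that shift WWTR1, at 1.36, kept its place. The regulator median was 0.041 with the span trend removed, and the target median 0.037 with no filter, 0.17 under quantile normalisation and 0.026 with the span trend removed. Without 1 library, medians ran from 0.04 to 0.25 for the 10 genes, 0.10 to 0.26 for the regulators and -0.11 (without the mid anagen male) to 0.31 (without the early anagen male) for the targets.

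Apart from ANKRD1, signs turned only for differences that no setting called. TEAD1 was at -0.10 with the span trend removed. After rescaling TEAD4 was at 0.16, AMOTL2 at 0.069 and ANKRD1 at 0.049. Without 1 library log2 fold changes ran from -0.032 to 0.22 for TEAD3, -0.49 to 0.15 for TEAD4, -0.65 to 0.11 for AMOTL2, -0.11 to 0.96 for CTGF, -0.74 to 0.033 for TNS3 and, with calls in both directions, -1.76 to 1.20 for ANKRD1. The target median by sex stayed between 0.25 and 0.48 under the alternatives added for it. Of the genes named in the text, 14 that had not passed were called with the block and 12 after rescaling. The cause of these changes was not tested.

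The replicate numbers are the sexes, and nothing says that same-numbered libraries share an animal or batch; the deviations of same-numbered libraries from their phase means correlated at 0.29 across genes. With 1 or 2 residual degrees of freedom, and 0 for a sex contrast without 1 library, these fits limit what can be called.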
